A study of Mus musculus with 6 samples.

Results

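Matricellular proteins are secreted into the extracellular matrix, where they act less as building material than as signals that tune how cells adhere, migrate and respond to growth factors. Fibronectin, by contrast, is assembled by integrins into fibrils that other matrix proteins bind. In the mammary gland such proteins are known from the basement membrane zone and the stroma around growing ducts, and several rise during branching, involution and cancer. The 10 genes described here were matched by gene name to a list of non-collagen matrix glycoproteins, and all 10 were found among the 55809 genes counted. They are *Tnc* (tenascin-C), *Thbs1* and *Thbs2* (thrombospondins 1 and 2), *Fn1* (fibronectin), *Sparc* (osteonectin), *Spp1* (osteopontin), *Postn* (periostin), *Ccn3* (a CCN family protein), and *Fbln1* and *Fbln2* (fibulins 1 and 2).

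HC11 is an established line of mouse mammary epithelial cells, used in the study as a luminal line. Sequencing of poly(A) RNA covered 3 libraries of HC11 cells kept in medium without BMP7 (Ctrl) and 3 of HC11 cells kept in medium with BMP7, a bone morphogenetic protein that signals through SMAD1/5. The study used these cells to look for paracrine signals that luminal cells send to basal cells in response to BMP7. The methods describe HC11 cells starved and then stimulated with BMP7 for a short or a longer time, without giving the time point of the sequenced cells. The libraries are named by the numbers in the deposited table, which are 1, 2 and 3 for Ctrl and 1, 3 and 4 for BMP7. All come from 1 cell line, and the labels do not say whether they were separate cultures, so p-values measure the spread between these libraries. Because the RNA is from whole cultures, fewer cells of a type and less RNA per cell cannot be told apart.

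Between 14607938 and 23748970 fragments were counted per library, fewest in BMP7 replicate 1. Levels are given as CPM, which are counts relative to the TMM-scaled size of the library. Of 9 listed luminal markers, 8 were tested, and their summed level was 1804 to 1826 CPM in Ctrl and 1453 to 1476 CPM with BMP7. Of 9 basal markers, 8 were tested. The basal sum, mostly *Krt5* and *Krt14*, was 6556 to 6691 CPM in Ctrl and 7537 to 8964 CPM with BMP7. The luminal sum was mostly *Cdh1* (mean 983 CPM in Ctrl and 818 with BMP7) and *Epcam* (640 and 479). *Krt8*, at 63.2 and 67.1 CPM, did not pass the test, and *Krt18* fell from 49.5 to 31.3 CPM. These cells thus carried listed markers of both layers, though the contractile basal markers *Acta2*, *Myh11* and *Cnn1* lay below 1 CPM in every library. BMP7 replicates 3 and 4 stood apart from BMP7 replicate 1 in markers of other cell types. Together the 14 adipocyte markers reached 105 CPM in BMP7 replicate 4 and 120.1 in BMP7 replicate 3, while BMP7 replicate 1 had 42.9 and the Ctrl libraries 27.4 to 39.9. Of the 11 tested adipocyte markers 10 were called higher with BMP7 (edgeR fold change over 1.2 and adjusted p below 0.05), against 5.99% of all genes tested. The groups did not overlap for 6 of the 11, against 29.8% of all genes tested. *Plin1*, 1 of the 10 called, passed edgeR's filter by expression only through its BMP7 libraries, so it could be called only as a rise. *Pparg*, which encodes the adipocyte regulator PPAR-gamma, had at most 3 counts in every library. The 15 macrophage markers had sums of 33.9 and 34.9 CPM in these 2 libraries, while BMP7 replicate 1 had 70.3 and the Ctrl libraries 67.6 to 72.9. Among the tested macrophage markers 4 of 11 were called lower and 0 higher, against 5.38% and 5.99% of all genes tested. *Itgam*, 1 of these 4, passed edgeR's filter by expression only through its Ctrl libraries, so it could be called only as a fall. Of 11 fibroblast markers 8 were tested, and 5 of them were called higher and 1 lower with BMP7, with 11.4% of all genes tested called in either direction and a median log2 fold change of 0.86 over the 8. *Dpt* (log2 fold change 2.23), *Dcn* (1.67), *Col1a2* (1.65), *Pi16* (1.07) and *Col3a1* (0.65) rose and *Col1a1* (-0.41) fell. *Dpt* passed the same filter only with BMP7 replicates 3 and 4. In BMP7 replicate 1 *Dpt* was at 0.279 CPM (Ctrl 0.196 to 0.530), *Dcn* at 1.74 (Ctrl up to 1.73) and *Col3a1* at 3.69 (Ctrl up to 3.52). There *Col1a2* at 3.76 and *Pi16* at 3.07 lay further above Ctrl, which reached 1.62 and 1.64. The summed fibroblast markers, mostly *Pdgfra* and *Col1a1*, overlapped at 116 to 128 CPM in Ctrl against 106 to 125 in the BMP7 libraries. No fibroblast, adipocyte or macrophage marker was at 0 in every library. Of 8 endothelial markers, 4 had at most 3 counts in every library, and the sum, at 13.8 to 16.1 CPM in Ctrl and 24.5 to 26.5 in the BMP7 libraries, was mostly *Pecam1*. The part of these markers in the results below was not tested.

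Of the 10 matrix genes, 7 had enough counts for edgeR's filter by expression, and 4 were called with BMP7 by those limits. *Tnc*, *Postn* and *Sparc* rose and *Thbs1* fell. *Fn1* and the low *Fbln1* did not pass the test, and *Spp1* passed by adjusted p but lay just inside the fold limit. Over all 15733 genes tested, 5.99% were called higher, 5.38% lower and 11.4% in either direction by the same edgeR quasi-likelihood test with Benjamini-Hochberg adjustment. The median log2 fold change was 0.33 over the 7 tested members and -0.01 over all genes tested. The Ctrl and BMP7 libraries did not overlap for 5 of the 7 members, against 29.8% of the genes tested overall. For each of these 5 the exact two-sided permutation test gave p = 0.1, the smallest that 3 libraries against 3 allow.

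Promoter sequence is shown for *Tnc* and *Postn*, the members that rose most, and for the most abundant member, *Spp1*. RefSeq promoter windows on GRCm38.p6 were matched for 7 members in 11 windows, and *Thbs1*, *Fn1* and *Ccn3* had no entry. The 250 bases before each start were searched on both strands. The capitals below mark matches to TATAAA (the letters of a TATA box, at any distance) or CAGACA (a SMAD-type element, TGTCTG on the other strand). No printed base lies in an exon of GENCODE vM21, which is on the same build. The first is the upstream of 2 *Tnc* windows at chr4:64047016-64047265 on the minus strand, the second the downstream of 2 *Postn* windows at chr3:54360857-54361106 on the plus strand, and the third the upstream of 2 *Spp1* windows at chr5:104434861-104435110 on the plus strand.
Tnc: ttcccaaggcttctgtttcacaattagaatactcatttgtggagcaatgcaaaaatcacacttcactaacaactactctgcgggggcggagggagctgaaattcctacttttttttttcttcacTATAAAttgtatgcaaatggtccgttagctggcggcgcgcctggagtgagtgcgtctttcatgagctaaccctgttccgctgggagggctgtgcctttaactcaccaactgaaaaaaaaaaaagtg
Postn: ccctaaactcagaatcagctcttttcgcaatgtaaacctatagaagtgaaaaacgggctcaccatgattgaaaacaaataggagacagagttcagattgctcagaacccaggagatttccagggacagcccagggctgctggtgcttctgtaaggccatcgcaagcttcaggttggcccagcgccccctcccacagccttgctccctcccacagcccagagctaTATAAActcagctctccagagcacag
Spp1: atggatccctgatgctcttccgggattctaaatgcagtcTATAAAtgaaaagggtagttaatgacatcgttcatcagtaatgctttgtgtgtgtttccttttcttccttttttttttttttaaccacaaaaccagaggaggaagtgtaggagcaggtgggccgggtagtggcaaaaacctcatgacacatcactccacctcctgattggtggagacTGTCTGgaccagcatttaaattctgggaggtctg

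In the *Postn* window TATAAA began 26 bases before the start, in the *Tnc* window 126 bases before, and in the *Spp1* window 211 bases before. The *Spp1* window also held CAGACA on the minus strand, beginning 34 bases before the start. The other *Tnc* window, not printed, held CAGACA on the minus strand as well, beginning 71 bases before its own start. Neither *Postn* window held it. TATAAA was found in 5 of the 11 members' windows and CAGACA in 6, some windows of 1 gene overlapping, and they were found in 12.4% and 17.1% of 32851 windows of all genes. GGCGCC, a GC-rich SMAD1/5 element (9.59% of all windows), GTCTAGAC, a SMAD palindrome (0.167%), and TGANTCA, an AP-1 element (6.75%), were in none of the members' windows. No matches overlapped. These are descriptions of letters in a short window, with no measurement of binding.

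*Tnc* encodes tenascin-C, a multi-armed glycoprotein that loosens adhesion to fibronectin. By the mm39 annotation it spans 63878022 to 63965252 on chromosome 4, with 7772 bases of exon. The level of *Tnc* was 437, 428 and 426 CPM in Ctrl replicates 1, 2 and 3, and 816, 918 and 859.5 CPM in BMP7 replicates 1, 3 and 4. Every BMP7 library lay far above every Ctrl library, including BMP7 replicate 1. That library stood near Ctrl in the summed adipocyte and macrophage markers, and the part of these markers in the *Tnc* values was not tested. The mean rose from 430.4 ± 6.17 to 864 ± 51.1 CPM (mean ± SD, n = 3 each). The log2 fold change was 1.01 (SE 0.06, 95% interval 0.87 to 1.14, adjusted p = 9.98e-09 from edgeR).

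*Postn* encodes periostin, a fasciclin-domain protein that binds tenascin-C and collagen I and is usually made by fibroblasts and osteoblasts. It lies on chromosome 3 from 54268530 to 54298458. Periostin RNA was at 2372, 2078 and 2227 CPM in Ctrl replicates 1, 2 and 3, and 3206, 3840.2 and 3472 CPM in BMP7 replicates 1, 3 and 4. The groups did not overlap, and BMP7 replicate 1 was the lowest of the BMP7 libraries. The mean rose from 2226 ± 147 to 3506 ± 318 CPM. The log2 fold change was 0.66 (SE 0.08, 95% interval 0.49 to 0.82, adjusted p = 1.54e-05 from edgeR). With BMP7, *Postn* took 0.341% of all counted fragments, against 0.228% in Ctrl. As given above, 5 of the 8 tested fibroblast markers were called higher with BMP7 and 1, *Col1a1*, lower, against 5.99% and 5.38% of all genes tested. The summed fibroblast markers overlapped between the groups, and the part of these markers in the *Postn* values was not tested.

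*Sparc* encodes osteonectin, a calcium-binding protein that binds collagen and limits cell spreading, on chromosome 11 from 55285326 to 55314009. It was measured at 858, 715 and 807 CPM in Ctrl replicates 1, 2 and 3, and 981, 984 and 1019 CPM in BMP7 replicates 1, 3 and 4. The BMP7 libraries lay close together and above all Ctrl libraries, of which Ctrl replicate 2 was the lowest. The mean rose from 793 ± 72.4 to 994 ± 21.2 CPM. The log2 fold change was 0.33 (SE 0.07, 95% interval 0.18 to 0.47, adjusted p = 0.00448 from edgeR). This call was lost without Ctrl replicate 2, where the log2 fold change was 0.26 (adjusted p = 0.0456 from edgeR) and the fold fell under 1.2.

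*Thbs1* encodes thrombospondin-1, which inhibits angiogenesis and can release TGF-beta from its latent form. It lies on chromosome 2 from 117942357 to 117957614, and 3.42% of its exon bases are shared with *Gm29233*, where fragments were not counted. Its RNA was at 84.0, 99.4 and 85.4 CPM in Ctrl replicates 1, 2 and 3, and 48.0, 49.6 and 53.2 CPM in BMP7 replicates 1, 3 and 4. Every BMP7 library lay well below every Ctrl library. The mean fell from 89.6 ± 8.53 to 50.2 ± 2.66 CPM. The log2 fold change was -0.83 (SE 0.08, 95% interval -0.99 to -0.67, adjusted p = 8.54e-07 from edgeR), or 1.78-fold lower.

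*Spp1* encodes osteopontin, a secreted integrin and CD44 ligand with an RGD motif, also made in quantity by macrophages and during lactation. It lies on chromosome 5 from 104582984 to 104588916, and 18.8% of its exon bases are shared with *Gm42793*. Fragments there were not counted, and how many were lost in each group was not measured. Osteopontin RNA stood at 2166, 2438 and 2131 CPM in Ctrl replicates 1, 2 and 3, and 1967, 1856 and 1815 CPM in BMP7 replicates 1, 3 and 4. All BMP7 libraries lay below all Ctrl libraries, and BMP7 replicate 1 was nearest to them. The means were 2245 ± 168 and 1879 ± 78.3 CPM. The log2 fold change was -0.26 (SE 0.07, 95% interval -0.40 to -0.11, adjusted p = 0.0206 from edgeR). At 1.19-fold lower, *Spp1* fell short of the fold limit, and it passed both limits in 3 of the 6 fits on 5 libraries. With BMP7 replicate 1 as the only BMP7 library, its log2 fold change was -0.19 (adjusted p = 0.209 from edgeR). The summed macrophage markers were also lowest in BMP7 replicates 3 and 4, and their part in the *Spp1* values was not tested.

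*Fn1* encodes fibronectin, on chromosome 1 from 71624679 to 71692359. Its level was 1372, 1383 and 1497 CPM in Ctrl replicates 1, 2 and 3, and 1300.0, 1386 and 1486 CPM in BMP7 replicates 1, 3 and 4. The groups overlapped almost entirely. The means were 1418 ± 69.3 and 1391 ± 92.9 CPM. The log2 fold change was -0.03 (SE 0.07, 95% interval -0.17 to 0.12, adjusted p = 0.846 from edgeR), an interval that lies within the 1.2-fold limits on both sides. Gene-level counts do not separate the spliced forms of fibronectin.

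**Figure D1:**
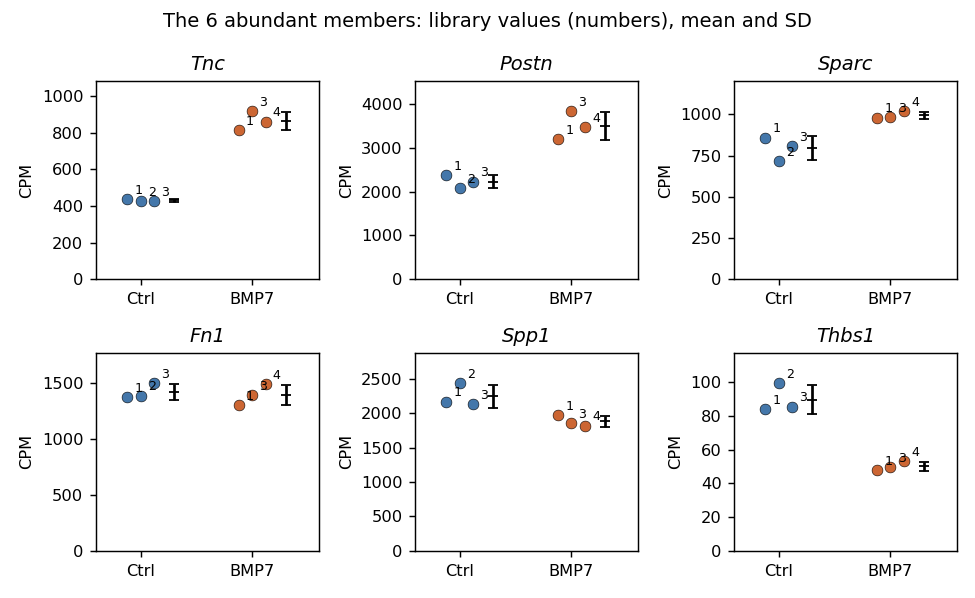
CPM (linear axis from 0) of the 6 abundant matrix genes in each library, with the library number beside each point and the group mean and SD (n = 3 each) as bars to the right. *Tnc* and *Postn* were higher in every BMP7 library, *Sparc* was higher by a smaller step, *Fn1* overlapped between groups, and *Spp1* and *Thbs1* were lower in every BMP7 library.

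The remaining members were near the limit of detection. *Fbln1*, whose protein binds fibronectin and basement membrane proteins, had 15, 5 and 14 counts in Ctrl replicates 1, 2 and 3, and 10, 27 and 8 in BMP7 replicates 1, 3 and 4. It was tested, with a log2 fold change of 0.53 (95% interval -0.49 to 1.56, adjusted p = 0.537 from edgeR), an interval too wide to place it on either side. *Ccn3*, of the same family as CTGF, had 5 to 10 counts in Ctrl and 4 to 11 with BMP7. *Thbs2*, the thrombospondin closest to *Thbs1*, had 5 to 14 counts in Ctrl and 4 to 7 with BMP7. *Fbln2*, which binds fibronectin and nidogen, had 4 to 17 counts in Ctrl and 0, 11 and 12 in BMP7 replicates 1, 3 and 4. Its 0 of 14607938 fragments allows up to 0.209 CPM, counting error only. These last 3 genes fell below the expression filter, their groups overlapped, and a difference was not detectable at this depth. With no filter their log2 fold changes were 0.25 for *Ccn3*, -0.53 for *Thbs2* and -0.17 for *Fbln2*, with adjusted p of 0.867, 0.677 and 0.911 from edgeR.

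Levels were compared between genes per kilobase of exon (kb). In Ctrl the order was *Spp1* (1362 ± 102 CPM per kb), *Postn* (256 ± 16.9), *Sparc* (209 ± 19.1), *Fn1* (121 ± 5.93), *Tnc* (55.4 ± 0.793) and *Thbs1* (14.8 ± 1.41), all SD over 3 libraries, and no 2 neighbours in this order overlapped. By this level *Spp1* ranked 24 and *Postn* 164 among the 15733 genes tested in Ctrl. With BMP7 *Postn* ranked 117 and *Spp1* 33. *Tnc* stood at 111 ± 6.58 CPM per kb with BMP7 and *Fn1* at 119 ± 7.95, so these neighbours overlapped there, which they did not in Ctrl. The 4 low members lay between 0.0464 and 0.178 CPM per kb in group means, and each overlapped its neighbour in the order. The summed level of all 10 genes was 7143 to 7292 CPM in Ctrl and 8319 to 9036 CPM with BMP7.

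**Figure D2:**
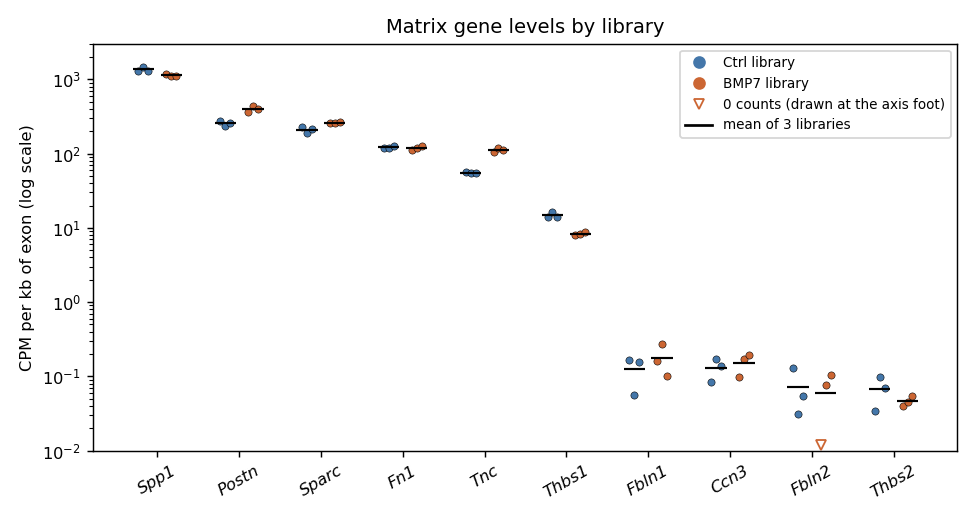
Level of each matrix gene in CPM per kb of exon (log axis), with points for libraries and lines for group means. *Spp1* was the highest of the 10 genes in both groups, 6 genes lay above 5 CPM per kb, and *Fbln1*, *Ccn3*, *Fbln2* and *Thbs2* lay below 1, with the 0 count of *Fbln2* in BMP7 replicate 1 drawn as an open triangle at the foot of the axis.

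The log2 fold changes of *Tnc*, *Postn* and *Thbs1* were little moved by any 1 library. With each library left out in turn, that of *Tnc* ranged from 0.96 to 1.05, that of *Postn* from 0.59 to 0.72, and that of *Thbs1* from -0.88 to -0.75, and each of the 3 genes was called in all 6 fits. With BMP7 replicate 1 as the only BMP7 library, 4 members were still called, and the log2 fold changes were 0.92 for *Tnc*, 0.53 for *Postn*, 0.31 for *Sparc* and -0.90 for *Thbs1*.

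**Figure D3:**
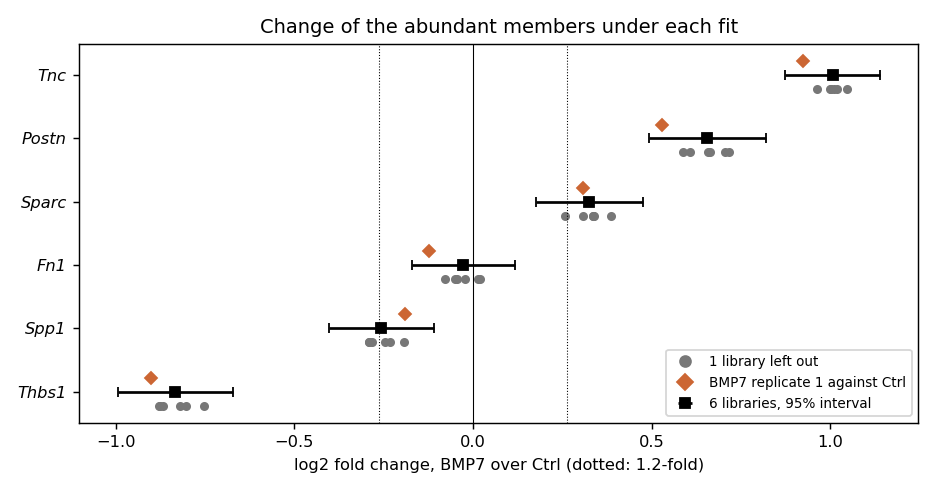
Log2 fold change of BMP7 over Ctrl for the 6 abundant matrix genes, with squares and bars for the fit to 6 libraries and its 95% interval, circles for fits on 5 libraries, and diamonds for BMP7 replicate 1 alone against Ctrl. *Tnc*, *Postn* and *Thbs1* kept clear of the dotted 1.2-fold lines in each of these fits, *Fn1* lay around 0, and *Sparc* and *Spp1* lay close to a dotted line.

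For each called member, the genes of mean level above 5 CPM whose log2 level followed it most closely over the 6 libraries were sought among 11291 genes, by the root mean square difference after centring each gene on its own mean. *Gpr137c* (difference 0.0361) and *Naaladl2* (0.0472) were nearest to *Tnc*, and *Kctd12* (0.0407) and *Zswim6* (0.0465) to *Postn*. *Wwp2* (0.0339) and *Fgfr2* (0.0354) were nearest to *Sparc*, and *Fam20a* (0.0450) and *Tamalin* (0.0626) to *Thbs1*. These are descriptions of likeness over 6 libraries in 2 groups, and genes with a similar fold change fall near each other by this measure.

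Other matricellular and non-collagen matrix glycoproteins were compared as a list of 48 genes, of which 24 were tested. Of these, 11 were called higher with BMP7 and 0 lower, against 5.99% and 5.38% of all genes tested, and the list's median log2 fold change was 0.56. Among the 11, *Tnn* and *Nid1* passed the expression filter only through their BMP7 libraries, so they could be called only as rises. At an unadjusted p under 0.05 from edgeR 2 of the list, *Emilin2* and *Vwa1*, were lower, and DESeq2 called 0 lower. *Tnn*, which encodes tenascin-W, lay between 0.0489 and 0.289 CPM in Ctrl and between 7.22 and 9.78 CPM with BMP7, with so few Ctrl counts that its fold is imprecise. *Smoc1* and *Smoc2*, SPARC-related proteins of which SMOC1 modulates BMP signaling, had log2 fold changes of 0.91 (adjusted p = 8.14e-08) and 2.01 (adjusted p = 5.41e-05), both from edgeR. *Aebp1*, which encodes a collagen-binding secreted protein, rose from 47.5 ± 0.773 to 164 ± 3.87 CPM, and *Ccn1*, a CCN protein induced by growth factors, rose from 12.2 ± 2.44 to 40.7 ± 8.68 CPM. *Npnt*, which encodes the integrin ligand nephronectin, rose from 0.941 ± 0.161 to 2.11 ± 0.708 CPM. The other 5 that rose were *Nid1*, *Fras1*, *Ccn2*, *Ecm1* and *Tgfbi*, with log2 fold changes of 0.56 to 1.78. *Nid1* was at 0.558 CPM in BMP7 replicate 1 and at 1.38 and 1.82 in BMP7 replicates 4 and 3, with a Ctrl range of 0.246 to 0.440. Of the low members' kin on this list, *Fbln5* (log2 fold change 0.03), *Fbln7* (0.02), *Thbs3* (-0.16) and *Ccn4* (-0.02) did not pass the test. *Ccn1* and *Ccn2*, of the same family as *Ccn3*, were among the genes that rose.

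Of 18 listed receptors of the members, 16 were tested, and 2 were called higher and 3 lower, with 11.4% of all genes tested called in either direction. The list's median log2 fold change was -0.16. *Sdc1*, a syndecan of epithelial surfaces, rose from 220 ± 5.59 to 282 ± 11.1 CPM, whereas *Sdc4*, a syndecan that cooperates with integrins in adhesion to fibronectin, fell from 329 ± 9.81 to 248 ± 14.5 CPM. *Itgb3*, the beta subunit that pairs with the alpha V integrin as a receptor for osteopontin, fibronectin and thrombospondin, fell from 68.8 ± 7.15 to 50.6 ± 1.53 CPM. *Stab1*, a scavenger receptor for SPARC that is known from macrophages, fell from 5.98 ± 1.13 to 3.56 ± 0.899 CPM. *Cd36*, a thrombospondin receptor that also stands on the adipocyte list, was at 0.782 to 1.35 CPM in Ctrl, at 1.39 in BMP7 replicate 1 and at 5.33 and 5.62 in BMP7 replicates 3 and 4. The main fibronectin receptor subunits did not pass the test, with log2 fold changes of 0.01 for *Itga5* (adjusted p = 0.959) and 0.12 for *Itgb1* (adjusted p = 0.191), both from edgeR. *Cd44* (-0.18) and *Cd47* (0.03), receptors for osteopontin and thrombospondin-1, did not pass either.

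Of 19 genes whose products crosslink the matrix or turn it over, 16 were tested, and 3 were called higher and 1 lower, against the same 11.4% of all genes tested. The median log2 fold change was 0.04. *Timp3*, a matrix-bound inhibitor of metalloproteinases, rose from 325 ± 32.1 to 469 ± 31.3 CPM, though 21.3% of its exon bases are shared with *Syn3* and were not counted. *Timp1* rose from 37.0 ± 3.29 to 46.8 ± 5.93 CPM, and *Tgm1*, a transglutaminase of epithelial differentiation, from 1.11 ± 0.236 to 3.56 ± 0.615 CPM. *Plat*, which encodes tissue plasminogen activator, was called lower (log2 fold change -0.36, adjusted p = 0.0301 from edgeR) with groups that overlapped. *Bmp1*, the protease that processes several matrix precursors, had a log2 fold change of 0.05, and the collagenase *Mmp14* one of -0.01, and neither passed the test.

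**Figure D4:**
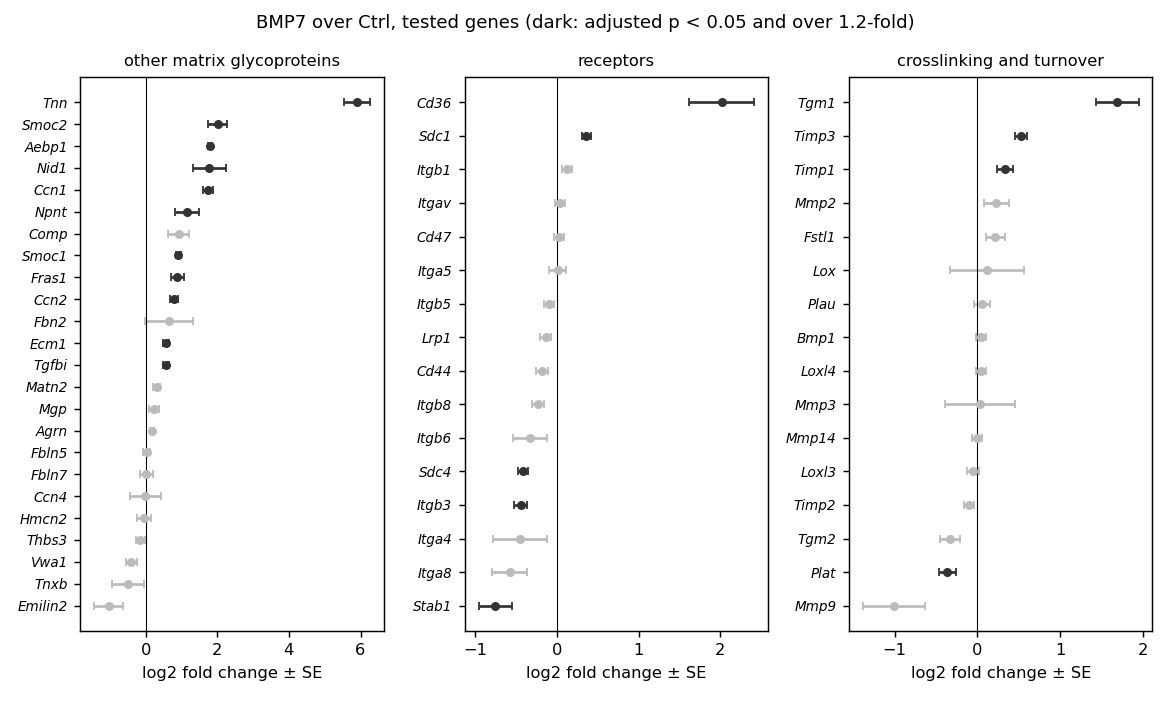
Log2 fold change of BMP7 over Ctrl with its standard error for the tested genes of 3 lists, in rising order, dark where called and grey where not. The called matrix glycoproteins all lay to the right of 0, while called receptors and turnover genes lay on both sides.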

How the data were processed

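Read pairs were sequenced from 3 Ctrl and 3 BMP7 libraries of HC11 cells. The authors aligned them with subjunc (Subread 2.0.3 per the submitters' processing notes; the methods name mm10 and GENCODE vM30) and counted fragments on exons per gene name with featureCounts (2.0.1 and an mm39 annotation per the file headers). These counts were deposited without normalization, together with summed exon lengths. Strand was not used, and fragments mapping to several places or genes were left out.

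The counts were analysed in R 4.3.3 with edgeR 4.0.16 (expression filter, TMM, quasi-likelihood test over 15733 genes, Benjamini-Hochberg adjustment over all of them). The common biological coefficient of variation was 0.0696. Same-group libraries differed by more than sampling noise (chi-square per degree of freedom 5.00 to 11.8). Standard errors are the log2 fold change over the square root of F. Levels of genes with few counts are limited by counting error. The test was checked on simulated counts before use. Sequence matches to other genes were searched with BLAST 2.17.0 in GENCODE vM21 (95% identity, 100 bases), and those found for the members were to genes that also share exon bases with them. The alternatives were DESeq2 1.42.0, other scalings and filters, glmTreat, leaving out libraries, and a term for BMP7 replicates 3 and 4. The genes and lists were chosen with earlier results of these data known. Named from the lists were up to 6 called genes per direction with groups that do not overlap and a mean of at least 1 CPM. The other list genes were named after their values were seen, as was the fit without BMP7 replicates 3 and 4 chosen.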

Additional observations from a re-analysis of the deposited data

How the results depend on the processing

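No change of direction past the threshold was seen in any alternative. *Tnc*, *Postn* and *Thbs1* were called in every alternative that tests them. *Sparc* was not called with glmTreat, which tests against a fold of 1.2 (log2 fold change 0.33, adjusted p = 0.576), and ranged from 0.26 to 0.39 with 1 library left out, with the call lost without Ctrl replicate 2. *Spp1* was also called with upper-quartile scaling (-0.27) and ranged from -0.29 to -0.19 with 1 library left out, past both limits without Ctrl replicate 1, Ctrl replicate 3 or BMP7 replicate 1. A term for BMP7 replicates 3 and 4, which leaves BMP7 replicate 1 against Ctrl, gave 0.92 for *Tnc*, -0.12 for *Fn1* and 0.53 for *Postn*. With 1 library left out, between 3 and 5 members, 9 and 12 other glycoproteins, 4 and 6 receptors and 2 and 5 crosslinking and turnover genes were called, the fewest of the last without Ctrl replicate 1. Without BMP7 replicates 3 and 4, when the lone library is assumed to vary like Ctrl, 4 members, 9 glycoproteins, 4 receptors and 4 turnover genes were called. glmTreat called 1 receptor and 2 turnover genes, and 494 higher and 254 lower of all genes against 942 and 846. With no filter on low counts 7 turnover genes were called, of 19 then tested. The cause of these differences was not tested, except that glmTreat sets a stricter fold by construction. No paired analysis was possible because the BMP7 columns carry numbers (1, 3 and 4) other than those of the labels and could be matched to the group only. For the 4 low members depth limits what can be seen, since none had over 27 counts in any library.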
